A study of Mus musculus with 12 samples.

Results

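Uridine phosphorylase 2 (Upp2) and 7 other genes that break down or salvage pyrimidines were followed in fibrotic mouse liver. The members were named by gene: the uridine phosphorylases Upp2 and Upp1, the enzymes of uracil breakdown Dpyd, Dpys and Upb1, the cytidine deaminase Cda, and the uridine-cytidine kinases Uck1 and Uckl1. All protein-coding transcripts listed for these 8 genes were taken, 21 of 29883 listed transcripts, and the genes were 8 of 14188. Upp2 was selected on its rise between the groups compared here, and the other members by their place in the pathway with earlier results of these data known. The differences between the groups are therefore given for the members as a description, with no p-value.

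Total RNA of liver was sequenced after removal of ribosomal RNA in a PZH group and a control group of 6 mice each. The mice of both groups, labelled as strain C57BL/8 and given in the methods of the study as C57BL/6J, were 6 weeks old at the start. Mice of both groups received CCl4, a solvent that injures hepatocytes, by 2 intraperitoneal injections per week at 10 µl/g of its mixture. The PZH group was given Pien Tze Huang (PZH), a medicine of Chinese tradition, by gavage at 0.25 mg/g 1 time per day, and the control group received double distilled water. Livers were taken in week 8. No mice without CCl4 were analysed here, so each difference is between injured livers with and without PZH.

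Uridine and uracil come from RNA turnover and from salvage. Uridine phosphorylases split uridine into uracil and ribose 1-phosphate, dihydropyrimidine dehydrogenase (Dpyd), dihydropyrimidinase (Dpys) and beta-ureidopropionase (Upb1) then convert uracil in sequence to beta-alanine, and the kinases return uridine to the nucleotide pool. The liver carries out much of this breakdown, and UPP2 is the phosphorylase known as the liver form, while UPP1 is found in many tissues.

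The values are FPKM, in which the fragments of a transcript are divided by its length and by the size of the library, so that they are corrected for length and can be compared between genes. Gene values are sums over the listed protein-coding transcripts. The smallest steps of the FPKM values implied 26.8 to 42.8 M fragments per mouse. This is a rough guide, since only 2.65% to 3.50% of low values were whole multiples of a step. Over all genes the median difference between the groups was −0.11 on the log2(FPKM + 1) scale, and with the FPKM as deposited 28.3% of the genes called at an adjusted p below 0.05 were higher in the PZH group. After each mouse was divided by a median-ratio scale factor the share was 52.5%, and the median difference was 0.0055. The scale factors differed by −0.20 on the log2 scale between the groups (PZH minus control), so member differences are given on both scales.

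Upp2 was listed with 5 isoforms, all on the plus strand of chromosome 2 (GRCm38). Some of the coding stretches in which they differ are shown because the isoforms did not carry the Upp2 signal equally. ENSMUST00000071543 (chr2:58567387-58792971, 8 exons, 325 codons) started 187825 bases upstream of ENSMUST00000229923. It had a last exon of its own, with a further coding end of 50 bases before the stop codon TGA, which is not shown. ENSMUST00000059102 (chr2:58754942-58791242, 8 exons, 338 codons) held an extra coding exon of 54 bases. ENSMUST00000102755 (chr2:58755180-58790668, 7 exons, 320 codons) had neither. ENSMUST00000230627 (chr2:58755212-58790305, 8 exons, 286 codons) held an extra exon of 149 bases before its coding start. ENSMUST00000229923 (chr2:58755212-58791236, 8 exons, 306 codons) differed in its coding part from ENSMUST00000102755 by an exon 7 of 112 bases, which ends the reading frame with another C-terminal end. These 112 bases were in no other listed isoform, while 814 exonic bases, of which 709 were coding, were in all 5. The first 2 sequences are the coding ends of ENSMUST00000229923 and ENSMUST00000102755 (chr2:58786568-58786677 and chr2:58790029-58790180, stop codons in capitals). Next is the extra exon of ENSMUST00000059102 (chr2:58761809-58761862), and the last 2 are the coding parts of the distal first exon (chr2:58567418-58567528) and of the downstream first exon (chr2:58755361-58755422), start codons in capitals.
ENSMUST00000229923, coding end in exon 7: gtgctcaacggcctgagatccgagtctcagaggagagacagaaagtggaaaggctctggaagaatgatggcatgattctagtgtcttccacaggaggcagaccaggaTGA
ENSMUST00000102755, coding end without this exon: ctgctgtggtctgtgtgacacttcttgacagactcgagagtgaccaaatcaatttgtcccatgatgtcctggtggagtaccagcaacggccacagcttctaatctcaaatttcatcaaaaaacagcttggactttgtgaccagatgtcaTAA
ENSMUST00000059102, extra exon 2: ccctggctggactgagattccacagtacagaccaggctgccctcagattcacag
ENSMUST00000071543, distal first exon: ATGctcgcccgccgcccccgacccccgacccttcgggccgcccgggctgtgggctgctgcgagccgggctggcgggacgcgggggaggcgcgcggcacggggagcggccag
ENSMUST00000229923, downstream first exon: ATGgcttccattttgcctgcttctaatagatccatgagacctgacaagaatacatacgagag

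The promoter windows of the RefSeq table (GRCm38.p6, 250 bases before to 50 after a start) differed in composition between the Upp2 starts. They are shown in part because 4 isoforms began within 270 bases of each other at the downstream start and 1 at the distal start. The distal window had a GC content of 75.3%, above 96.4% of all windows, and the downstream window had 47%, above 28.4% of them, where the median window had 52.7%. The 100 bases before the distal start (chr2:58567234-58567333) held a CCAAT box and, on the minus strand, an HNF1 half-site, both in capitals. The 30 bases of the downstream window shown here (chr2:58755143-58755172) held a TATA box in capitals, 29 bases before the RefSeq start. They lie within the first exon of ENSMUST00000059102 (chr2:58754942-58755422), and the other isoforms of the downstream start begin after them.
Upp2, distal start: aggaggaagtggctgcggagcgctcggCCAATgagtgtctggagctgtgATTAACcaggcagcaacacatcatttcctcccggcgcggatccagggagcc
Upp2, downstream start: agttggcctgcgTATAAAaggccatccagg
The motifs were searched by their letters on both strands in 32851 windows, and matches to different motifs did not overlap in the Upp2 windows. TATAAA was found in 13.6% of all windows, CCAAT in 37.4%, GTTAAT (the HNF1 half-site) in 7.1% and the nuclear receptor half-site AGGTCA in 16.3%. AGGTCA occurred 188 and 160 bases before the downstream RefSeq start, also within the first exon of ENSMUST00000059102. The E-box CACGTG (7.15% of windows), the D-box TTATGTAA (0.938%) and the HNF4 motif CAAAGTCCA (0.475%) had no match in either Upp2 window. Among the other members, the Upb1 window held CCAAT at 71 and 33 bases before its start, and AGGTCA occurred in both Uckl1 windows and in 1 of 3 Upp1 windows. TATAAA was found in no window of Upp1, Dpyd, Upb1, Cda, Uck1 or Uckl1. No window was looked at for Dpys.

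Upp2 was high in all livers of the PZH group and low in all control livers. In the PZH group its gene FPKM was 98.2, 31.5, 129, 85.5, 122 and 128 in mice 1 to 6, and in the control group 0.897, 4.37, 4.16, 1.81, 1.53 and 2.98. The groups did not overlap, and the lowest PZH mouse was 7.21-fold above the highest control. The means were 99.0 ± 37.4 and 2.63 ± 1.44 (SD, n = 6 mice per group), a 37.7-fold ratio of means. The difference was 4.75 (SE 0.35) on the log2(FPKM + 1) scale, which understates the change of a gene that is low in 1 group, and 4.92 (SE 0.36) after the scale factor. By the size of this difference Upp2 ranked 1 of 14188 genes, which follows from how it was chosen. In these bulk samples more RNA per cell and more of the cells that express a gene cannot be told apart.

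PZH mouse 2 stood apart from the other mice of its group in Upp2 and in Cda. Without it the Upp2 mean of the PZH group was 112 ± 19.6 (n = 5), which was 3.57-fold the value of this mouse, and the difference between the groups was 5.05. The summed FPKM of hepatocyte markers (43934), of pericentral hepatocyte markers (948) and of macrophage and leukocyte markers (296) was the lowest of the PZH group in this mouse. Its sums of stellate cell markers (191) and cholangiocyte markers (133) were the highest of the PZH group. Its sums of periportal hepatocyte markers (1327), endothelial markers (83.5) and proliferation markers (35.5) were neither the lowest nor the highest of the group. Each sum weighs the most abundant genes of its list most. In the PZH group Alb had a mean of 38437 FPKM in the hepatocyte list and Spp1 94.1 in the cholangiocyte list, both named for their level. The part of these marker levels in the low Upp2 value was not tested.

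The isoform with exon 7, ENSMUST00000229923, carried most of the Upp2 FPKM in the PZH group. Its FPKM was 76.3, 11.2, 90.9, 69.6, 86.1 and 94.2 in PZH mice 1 to 6, a mean of 71.4 ± 30.9. In the control group it was listed at 0 in 3 mice and reached at most 0.0213. By the implied depth, 1 fragment of this transcript is worth roughly 0.0123 to 0.0164 FPKM in the control mice. The values of control mice 3 (0.00851) and 6 (0.0110) lie below this, so no fragment number is read from them. No fold is given against this group, and the difference was 5.92 (SE 0.43) on the log2(FPKM + 1) scale. Within each mouse this isoform made up 68.2% ± 16.6 of the Upp2 FPKM in the PZH group, from 35.4% in mouse 2 to 81.4% in mouse 4. It had the largest share in 6 of 6 PZH mice and in no control mouse, where its share was at most 0.487%. Without PZH mouse 2 its mean share was 74.8%.

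**Figure D1:**
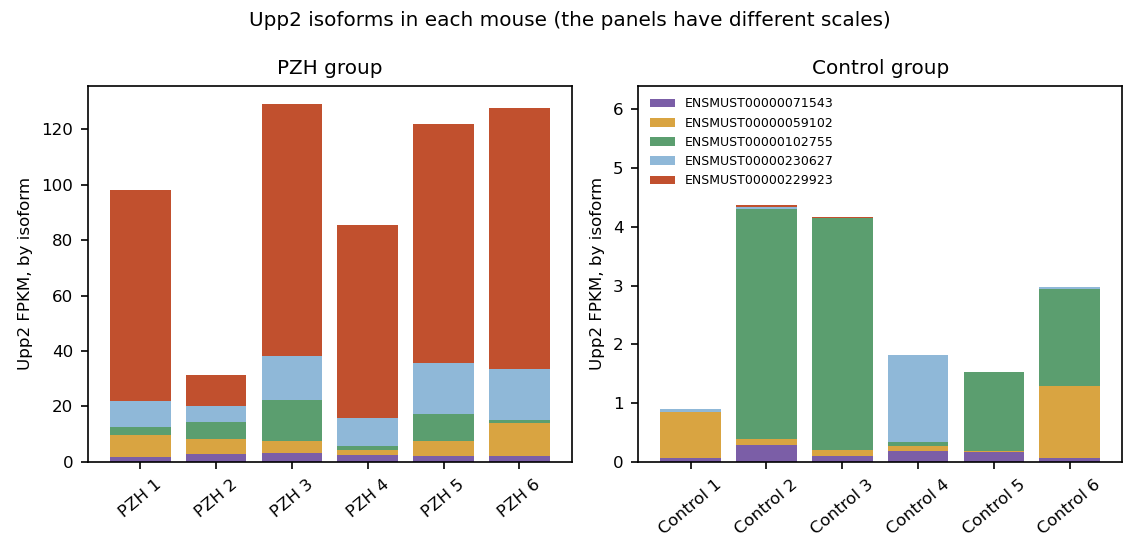
FPKM of the 5 listed Upp2 isoforms (vertical axis, stacked by colour) in each mouse of the PZH group (left) and of the control group (right), on different scales. ENSMUST00000229923 is the largest part in all 6 PZH mice, and in the control mice, whose sums lie between 0.897 and 4.37, 3 other isoforms lead.

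In the control livers the leading isoform varied between mice. ENSMUST00000102755, which lacks exon 7, led in 4 of 6 control mice, with a mean share of 55.5% ± 43.5 (n = 6). ENSMUST00000059102 led in control mouse 1 (87.4%) and ENSMUST00000230627 in control mouse 4 (80.9%). The 4 isoforms of the downstream start share most of their bases: 98.0% of ENSMUST00000102755 lies in ENSMUST00000229923. The split between them is an estimate of the assembler, and its part in the wide spread of the control shares was not tested. Exon 7 holds the only bases of ENSMUST00000229923 that no other listed isoform has, so its near-zero level in the control group rests on these 112 bases.

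The remaining isoforms also had higher means in the PZH group, and 1 of them overlapped between the groups. ENSMUST00000230627 ranged from 5.81 to 18.6 FPKM (median 13.0) in the PZH group and from 0 to 1.47 (median 0.0389) in the controls, a difference of 3.46 (SE 0.30). ENSMUST00000059102 ranged from 1.72 to 11.7 (median 5.27) against 0.0162 to 1.22 (median 0.0986), a difference of 2.26 (SE 0.33). ENSMUST00000102755 overlapped, with 1.03 to 14.9 (median 4.66) against 0 to 3.95 (median 1.5), and its difference of 1.22 (SE 0.58) was not called. The isoform of the distal start, ENSMUST00000071543, had a steadier level among the PZH mice than the others. It ranged from 1.83 to 3.17 FPKM (median 2.44) in the PZH group and from 0.0653 to 0.288 (median 0.133) in the controls, and its difference was 1.60 (SE 0.10). Both starts were thus higher in the PZH group, with means of 2.51 ± 0.510 against 0.145 ± 0.0852 FPKM at the distal start and 96.5 ± 37.5 against 2.48 ± 1.41 at the downstream start. The distal start made up 1.78% to 3.03% of the Upp2 FPKM in 5 PZH mice, 9.48% in PZH mouse 2 and 2.25% to 10.5% in the control mice. In PZH mouse 2, ENSMUST00000229923 (11.2 FPKM) and ENSMUST00000230627 (5.81) were the lowest of the group, while ENSMUST00000059102 (5.34), ENSMUST00000102755 (6.21) and the distal isoform (2.99) were not.

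Upp1, the phosphorylase of many tissues (chr11:9118103-9136170), was lower in the PZH group. Its gene FPKM ranged from 0.686 to 0.995 (median 0.840) in the PZH group and from 1.87 to 3.47 (median 2.76) in the controls, with no overlap. The means were 0.843 ± 0.124 and 2.67 ± 0.610, and the difference was −0.98 (SE 0.10), or −0.86 (SE 0.11) after the scale factor. Its 4 listed transcripts each had a mean under 1.3 FPKM in both groups and overlapped between the groups. ENSMUST00000101525 had the highest control mean (1.26 ± 0.929) and a called difference of −0.88 (SE 0.27), which was no longer called at −0.81 after the scale factor, and ENSMUST00000130522 had the next mean (0.840 ± 0.733). At these levels the precision of the split between Upp1 transcripts is unknown, and each was listed at 0 in at least 1 mouse.

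The order of the phosphorylases differed between the groups. Upp2 exceeded Upp1 in 6 of 6 PZH mice, at 43.1 to 178 times its FPKM, and in 3 of 6 control mice, where the ratio ranged from 0.291 to 2.34. Upp2 made up 97.7% to 99.4% of the FPKM of both genes in the PZH group and 22.5% to 70.1% in the controls. The sum of both genes was 99.8 ± 37.4 in the PZH group and 5.30 ± 0.932 in the controls. Within the control group the sum varied less between mice than either gene, with a coefficient of variation of 17.6% against 54.8% for Upp2 and 22.8% for Upp1.

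**Figure D2:**
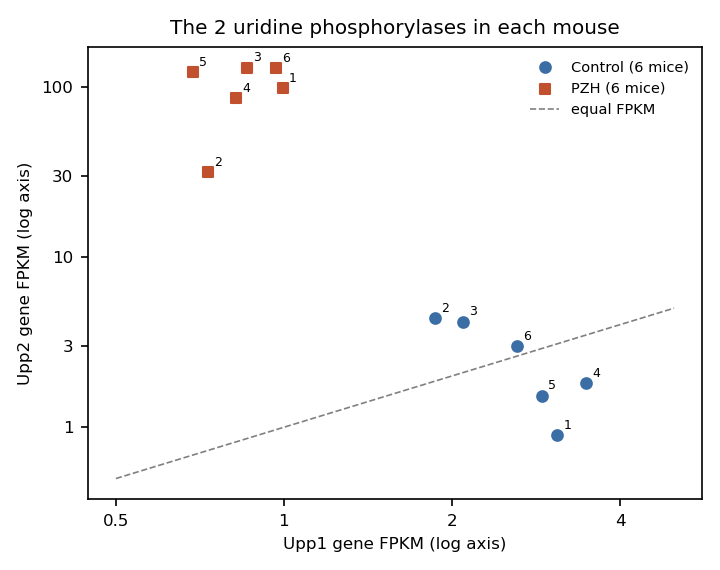
Upp2 gene FPKM (vertical) against Upp1 gene FPKM (horizontal) in each mouse, both on log axes, with the mouse number beside each point and a dashed line at equal FPKM. The 6 PZH mice lie far above the line, while 3 control mice lie above it and 3 below it.

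The enzymes of the following steps were expressed at high levels in all livers, and those of the later steps were higher in the PZH group. Dpyd (chr3:118562129-119432924), the first and rate-limiting enzyme of uracil breakdown, ranged from 72.9 to 109 FPKM (median 89.0) in the PZH group and from 73.5 to 82.3 (median 80.8) in the controls. Of the PZH mice 5 were above the highest control and PZH mouse 2 was below the lowest. The means were 90.4 ± 12.6 and 79.4 ± 3.44, and the difference of 0.17 (SE 0.09) was not called. It was called at 0.38 (SE 0.10) after the scale factor and at 0.23 without PZH mouse 2. Of its 2 transcripts, ENSMUST00000039177 held most of the level (86.4 ± 12.3 against 78.1 ± 3.43 FPKM). The minor transcript ENSMUST00000149101 was 3.91 ± 1.19 against 1.3 ± 0.403 with no overlap, a difference of 1.08 (SE 0.17).

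Dpys (chr15:39768487-39857470, minus strand), which opens the dihydropyrimidine ring, ranged from 56.1 to 74.6 FPKM (median 61.5) in the PZH group and from 22.7 to 45.0 (median 37.0) in the controls. The groups did not overlap. The means were 63.6 ± 6.95 and 34.5 ± 9.45, a ratio of 1.85, and the difference was 0.91 (SE 0.16), or 1.11 (SE 0.16) after the scale factor. Both expressed transcripts were higher without overlap, the major ENSMUST00000110306 by 0.85 (SE 0.19) and ENSMUST00000022915 by 1.19 (SE 0.35). The remaining transcript, ENSMUST00000155859, was under 0.45 FPKM in every mouse and was listed at 0 in 5.

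Upb1 (chr10:75401115-75441679), which forms beta-alanine in the last step, was listed with 1 transcript, ENSMUST00000039925. It ranged from 33.9 to 46.6 FPKM (median 42.8) in the PZH group and from 22.9 to 30.9 (median 28.5) in the controls, and the groups did not overlap. The means were 41.5 ± 4.37 and 27.9 ± 2.89, a ratio of 1.49, and the difference was 0.56 (SE 0.09), or 0.76 (SE 0.10) after the scale factor. The balance of the 3 steps differed as well, and this ratio does not depend on a scale factor. The FPKM of Dpyd was 1.42 ± 0.134 times that of Dpys in the PZH group (1.3 to 1.66) and 2.48 ± 0.806 times in the control group (1.80 to 3.60), with no overlap. The ratio of Dpys to Upb1 overlapped, at 1.54 ± 0.0931 against 1.22 ± 0.235.

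Cda (chr4:138338424-138367992, minus strand), which turns cytidine into uridine, was lower in the PZH group. Its single transcript, ENSMUST00000030535, ranged from 2.19 to 6.01 FPKM (median 3.42) in the PZH group and from 6.44 to 7.65 (median 7.21) in the controls. The highest PZH value was that of mouse 2, and the groups did not overlap. The means were 3.51 ± 1.33 and 7.18 ± 0.436, and the difference was −0.90 (SE 0.15), or −0.74 (SE 0.14) after the scale factor and −1.04 without PZH mouse 2.

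The uridine-cytidine kinases among the members, Uck1 and Uckl1, differed less. Uck2, a pyrimidine kinase that is no member, was named after its values were seen. Its difference was −0.66 (SE 0.08) with no overlap between the groups, and it was still called at −0.51 after the scale factor. Uck1 (chr2:32255002-32260159, minus strand) ranged from 6.36 to 7.14 FPKM (median 6.54) in the PZH group and from 7.42 to 9.14 (median 8.36) in the controls, with no overlap. Its difference of −0.28 (SE 0.06) shrank to −0.10 (SE 0.06) and was no longer called after the scale factor. Nearly all of its level came from ENSMUST00000002625 (6.17 ± 0.380 against 7.87 ± 0.636 FPKM), and ENSMUST00000138133 stayed under 0.73 FPKM in every mouse. Uckl1 (chr2:181569149-181584892, minus strand), related to these kinases in sequence, overlapped between the groups. It ranged from 2.20 to 3.91 FPKM (median 2.51) against 1.64 to 4.09 (median 3.33), with a difference of −0.07 (SE 0.16) that turned to 0.08 after the scale factor. None of its 3 transcripts was called: ENSMUST00000057816 differed by −0.30 (SE 0.14), ENSMUST00000136875 by 0.37 (SE 0.22) and ENSMUST00000131949, listed at 0 in 6 mice, by −0.12 (SE 0.10). An antisense gene, Uckl1os, shares 459 of the 2479 exonic bases of Uckl1, and the libraries were strand-specific.

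**Figure D3:**
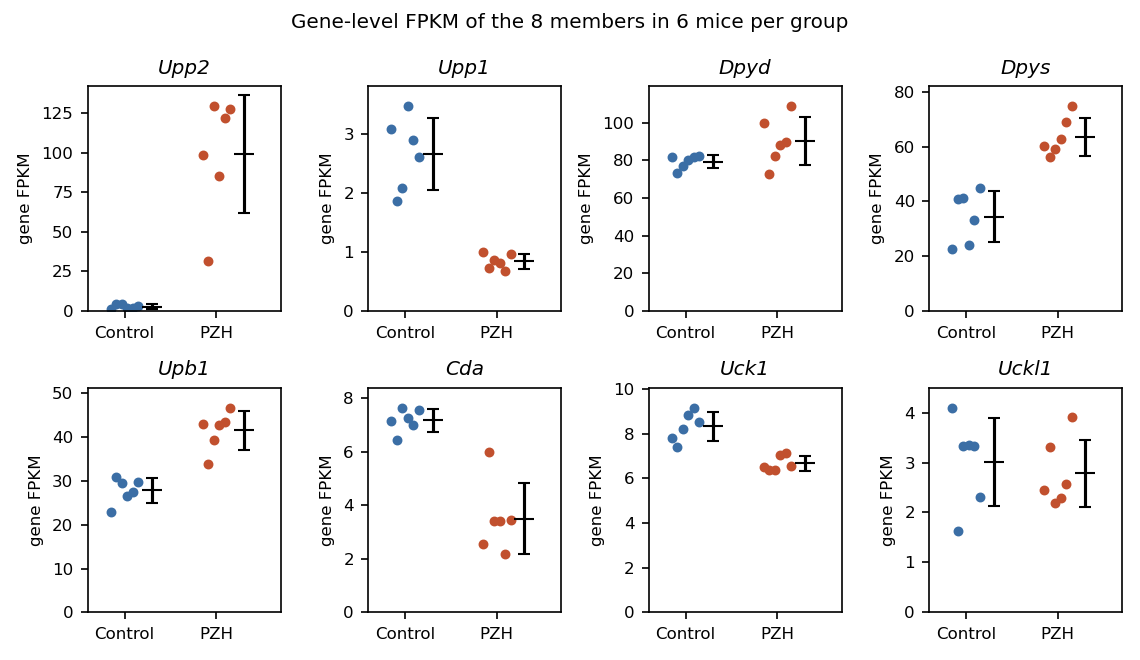
Gene FPKM (vertical, linear, from 0) of the 8 members in the 6 control mice (blue) and the 6 PZH mice (red), with the mean and SD of each group beside the points. The groups do not overlap for 6 members, and overlap for Dpyd and Uckl1.

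By adjusted p, 3 member genes were higher (Upp2, Dpys, Upb1), 3 were lower (Upp1, Cda, Uck1) and 2 were not called (Dpyd, Uckl1). Of all genes 12.7% were called higher and 32.1% lower by limma at a Benjamini-Hochberg adjusted p below 0.05. After the scale factor 4 members were called higher and 2 lower. The 2-fold rule of the study, a log2 difference of 1 with an unadjusted p below 0.05, called Upp2 alone among the members, where it called 1.52% of all genes higher and 2.5% lower. The groups did not overlap for 6 of 8 members and for 24.3% of all genes. The median difference of the members was 0.05, beside −0.11 over all genes. All 8 members had a mean of at least 1 FPKM.

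Of the 21 member transcripts, 8 were called higher, 3 lower and 10 not. The background over all transcripts was 5.73% higher and 14% lower. The 2-fold rule called 6 member transcripts, all of them higher, beside 1.24% and 1.99% of all transcripts. The groups did not overlap for 10 member transcripts and for 12% of all transcripts. A mean of at least 1 FPKM was reached by 13 of the 21, and 9 were listed at 0 in at least 1 mouse. As the members were chosen with this contrast known, nothing is read from these counts.

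**Figure D4:**
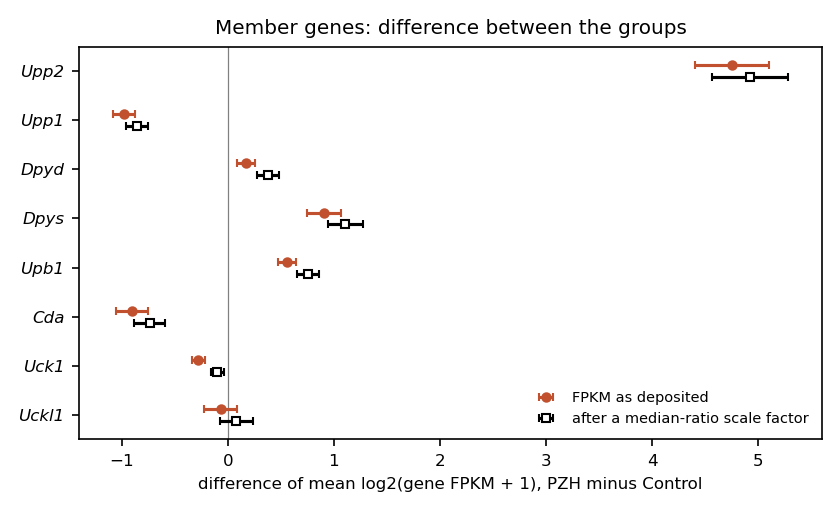
Difference of the group means (PZH minus control) of log2(gene FPKM + 1) for the 8 members (horizontal axis, with SE), from the FPKM as deposited (filled) and after a median-ratio scale factor per mouse (open). Upp2 lies at 4.75 and 4.92, all other members lie between −0.98 and 1.11, and Uckl1 changes sign.

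The order of the members by mean FPKM differed between the groups at its ends. In the PZH group it ran Upp2, Dpyd, Dpys, Upb1, Uck1, Cda, Uckl1, Upp1. Upp2 and Dpyd overlapped in range, as did Dpyd and Dpys, and Cda and Uckl1, while the other neighbours were separate. In the control group the order was Dpyd, Dpys, Upb1, Uck1, Cda, Uckl1, Upp1, Upp2. There Dpys and Upb1 overlapped, as did Uck1 and Cda, Uckl1 and Upp1, and Upp1 and Upp2.

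The spread of Upp2 among mice of 1 group was not used to choose the members, and it was compared with that of each other member on the log2(gene FPKM + 1) scale. In the control group Upp2 went with Upb1 (Pearson r = 0.921, two-sided exact permutation p = 0.00972, adjusted p = 0.136, n = 6 mice). Spearman's rho was 0.886 (exact permutation p = 0.0333, adjusted p = 0.233, n = 6). Without the 2 mice farthest from the median of Upp2, r was 0.841 (exact permutation p = 0.25, n = 4). Upp2 went against Upp1 in the control group (r = −0.862, exact permutation p = 0.0319, adjusted p = 0.197, n = 6, and rho = −0.829, exact permutation p = 0.0583, adjusted p = 0.272). Without the 2 farthest mice r was −0.868 (exact permutation p = 0.125, n = 4). In the same 4 control mice r moved from −0.06 to 0.950 for Cda and from −0.34 to −0.985 for Uck1. No stability is therefore read from values over 4 mice. Uckl1 had rho = −0.886 in the control group (exact permutation p = 0.0333, adjusted p = 0.233, n = 6), with r = −0.742. By the exact permutation test 3 of the 14 pairs had an unadjusted p below 0.05 for r and 2 for rho, and none passed after adjustment over all of them. After the scale factor 2 control pairs did by Pearson's r, Upb1 (r = 0.965, exact permutation p = 0.00417, adjusted p = 0.0486, n = 6) and Dpyd (r = −0.882, exact permutation p = 0.00694, adjusted p = 0.0486, n = 6), and none did by Spearman's rho.

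In the PZH group no relation passed either. Upb1 (r = 0.832, exact permutation p = 0.075, n = 6) and Cda (r = −0.820, exact permutation p = 0.0736, n = 6) had the largest values of r, both with an adjusted p of 0.197. Spearman's rho was 0.429 and −0.143, with exact permutation p of 0.419 and 0.803 and adjusted p of 0.773 and 0.865. Without the 2 farthest mice (n = 4) r fell to −0.03 for Upb1 and turned to 0.505 for Cda.

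Among 10947 genes with a mean of at least 1 FPKM, those most like Upp2 over the 12 mice were Stard7 (r = 0.990), Siae (0.987), Slc10a5 (0.987), Ptprd (0.986) and Itm2b (0.985). These values are a description, since the difference between the groups makes up most of each. Their r was 0.744 to 0.881 within the PZH mice and 0.805 to 0.991 within the control mice. The 5 genes were picked for the highest r over these same mice. Their values within a group follow in part from that choice and are no separate support. Slc10a5 encodes a member of a bile acid and solute carrier family, and its mean was 28.4 FPKM in the PZH group and 8.58 in the controls. Within the 6 PZH mice alone, Depp1 (r = 0.996), Gm3435 (0.987), Tfpt (0.977), C1s1 (0.976) and Etv5 (0.971) were most like Upp2. Over all 12 mice only C1s1 (r = 0.966) and Depp1 (0.791) of these kept a value above 0.5, and Tfpt (−0.495) and Etv5 (−0.857) went the other way. The genes named within the PZH group had the highest r of 10947 genes over 6 mice. Values this high can come from that choice alone, so they are a description too. PZH mouse 2, the lowest in Upp2, was below the group mean in each of these genes. Their r without this mouse was not tested.

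Other genes of pyrimidine metabolism moved in both directions. Of 43 listed by function 38 were measured, of which the PZH livers had 10 higher and 11 lower (limma, Benjamini-Hochberg adjusted p below 0.05) and 17 were not called. Beside these stand 12.7% of all genes higher and 32.1% lower. After the scale factor 16 of the 38 were higher and 7 lower. Their median difference was 0.04, beside −0.11 over all genes, and 3 rose and 1 fell by the 2-fold rule. The gene lists used here and below were chosen with earlier results of these data known. Their counts and adjusted p-values are therefore a description.

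The 3 listed genes that act after the Upb1 step were all higher, where 12.7% of all genes were higher and 32.1% lower. Abat, the mitochondrial transaminase of beta-alanine and GABA, was 67.7 ± 11.0 FPKM in the PZH group and 31.7 ± 7.0 in the controls, with a difference of 1.08 (SE 0.15, adjusted p = 0.000133). The remaining 2 of these 3 genes, named as the rest of a short list, were Agxt2, a mitochondrial transaminase, with 0.55 (SE 0.13, adjusted p = 0.00455), and Aldh6a1, the methylmalonate semialdehyde dehydrogenase, with 0.35 (SE 0.10, adjusted p = 0.0128). All 3 remained called after the scale factor. Agxt2 and Aldh6a1 overlapped between the groups, while Abat did not.

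Of the 5 genes of de novo synthesis 1 was higher and 2 were lower, or 3 and 2 after the scale factor, and their median difference was 0.05. Beside each count of this paragraph stand 12.7% of all genes higher and 32.1% lower. Cad, the enzyme of the first 3 reactions, was 4.75 ± 1.37 FPKM in the PZH group and 15.7 ± 1.76 in the controls, a difference of −1.56 (SE 0.14, adjusted p = 1.1e-05) with no overlap. The kinases and other salvage enzymes numbered 12, of which 2 were higher and 4 lower. Tk1, the thymidine kinase of dividing cells, rose by 1.96 (SE 0.16, adjusted p = 8.3e-06), from 1.72 ± 0.517 to 9.61 ± 2.42 FPKM. Among 8 genes of thymidylate and deoxynucleotide synthesis 3 were higher and 1 lower, and Rrm2, the cell cycle subunit of ribonucleotide reductase, rose by 1.26 (SE 0.14, adjusted p = 4.1e-05). Of 8 proliferation markers 6 were higher too, each with no overlap between the groups. The summed FPKM of the list was 25.7 to 61.5 in the PZH group and 26.3 to 31.1 in the controls. This sum weighs Pcna most, named for its level. Pcna had means of 18.7 FPKM in the PZH group and 21.3 in the controls and was not called. The part of the proliferation markers in the rise of Tk1 and Rrm2 was not tested. The proliferation markers that rose most were Mki67 (1.29, SE 0.12), Top2a (1.20, SE 0.17) and Ccna2 (1.13, SE 0.11).

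Of 6 measured pyrimidine nucleotidases 2 were lower and 4 were not called, and of 4 measured nucleoside transporters 1 was higher and 2 lower, where 12.7% of all genes were higher and 32.1% lower. Slc29a1, the equilibrative transporter of nucleosides, was named after its values were seen, since it was the transporter that rose: it was 34.2 ± 3.61 FPKM in the PZH group and 21.5 ± 4.55 in the controls, a difference of 0.67 (SE 0.13, adjusted p = 0.00103). Both lower transporters were no longer called after the scale factor. In the purine list, given beside the pyrimidine genes, 3 of 12 were higher and 3 lower, and Ampd3, an AMP deaminase, fell by 1.11 on the log2 scale (SE 0.15, adjusted p = 0.00012).

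**Figure D5:**
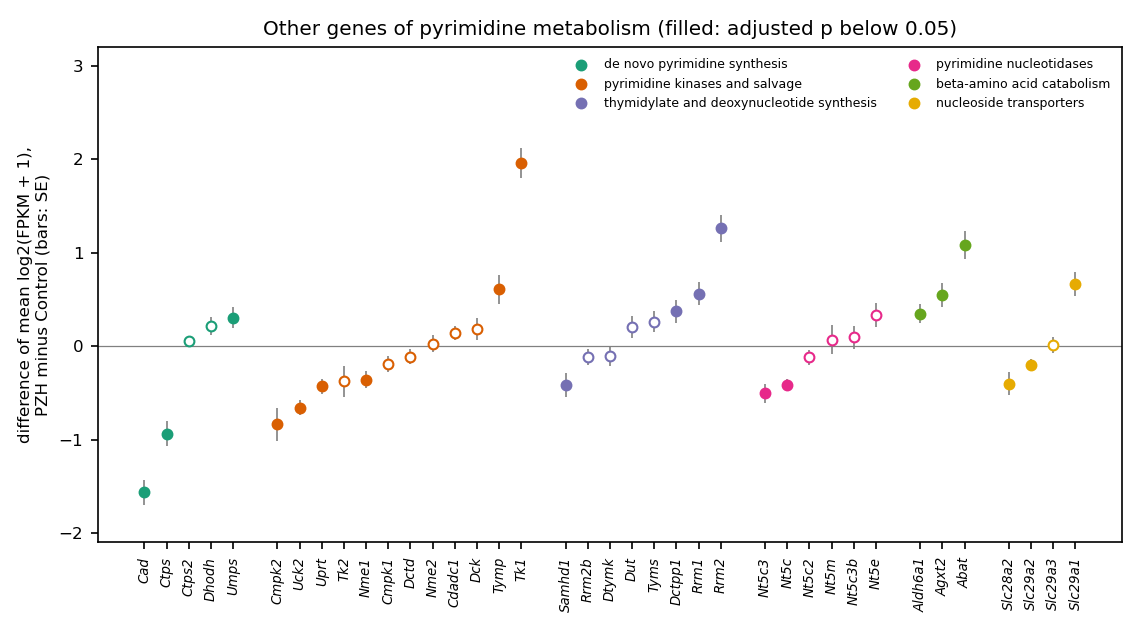
Difference of the group means (PZH minus control) of log2(FPKM + 1), with SE, for the 38 measured genes of pyrimidine metabolism that are no members, grouped by function along the horizontal axis. Filled points passed an adjusted p below 0.05 and open points did not: Cad is the lowest at −1.56, and Tk1 (1.96), Rrm2 (1.26) and Abat (1.08) are the highest.

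Genes of the circadian clock and its output differed in the same livers, and the sources used here give the week of killing and no hour. Of 18 clock genes 10 were higher and 3 lower, beside 12.7% of all genes higher and 32.1% lower. Dbp, a clock output factor of the PAR bZIP family, rose by 2.73 (SE 0.28, adjusted p = 2.2e-05), from 2.11 ± 1.29 to 18.5 ± 4.97 FPKM. Per3 rose by 1.88 (SE 0.17) and Tef by 1.49 (SE 0.27), while Nfil3 fell by 1.09 (SE 0.18) and Cry1 fell by 1.08 (SE 0.10). The part of clock phase in the Upp2 difference was not tested.

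Markers of liver cell types differed between the groups as well, where 12.7% of all genes were higher and 32.1% lower. Of 8 hepatocyte markers 3 were higher and 1 lower, or 6 and 1 after the scale factor. Fgb, a fibrinogen chain, was the lower one (−1.17, SE 0.12, adjusted p = 2.3e-05), and the summed FPKM of the list was 43934 to 60731 in the PZH group and 27236 to 40474 in the controls. Of 7 measured pericentral hepatocyte markers 5 were higher, with sums of 948 to 1946 against 290 to 511, led by Cyp2e1 (2.24, SE 0.22, adjusted p = 1.7e-05) and Cyp1a2 (2.0, SE 0.26). Of 7 periportal markers 4 were higher, among them Aldh1b1 (1.44, SE 0.23) and Ass1 (1.0, SE 0.16), and the sums overlapped (1270 to 2170 against 1140 to 1390). The sums of stellate cell and myofibroblast markers (112 to 191 against 110 to 183), of macrophage and leukocyte markers (296 to 558 against 314 to 473), of endothelial markers (77.1 to 99.9 against 88.2 to 101) and of cholangiocyte markers (66.9 to 133 against 96.9 to 161) overlapped. All sums of this paragraph weigh the most abundant genes of a list most. Single markers of these lists moved in both directions, and those named below as lower fell without overlap between the groups. The markers called higher were Col3a1 of the stellate cell list (0.62, SE 0.18) and Clec4f (0.60, SE 0.20) and Csf1r (0.38, SE 0.11) of the macrophage list. Of these, Clec4f did not overlap between the groups. Their differences were under the size used for naming, and they are given to show the other direction. Of the 10 stellate cell markers 1 was higher and 5 were lower (3 and 5 after the scale factor), among them Timp1, an inhibitor of metalloproteinases (−2.13, SE 0.16, adjusted p = 7.2e-06), and Tagln, an actin-binding protein (−1.38, SE 0.16). Of the 13 macrophage and leukocyte markers 2 were higher and 4 lower, which turned to 3 and 1 after the scale factor, and the lipopolysaccharide co-receptor Cd14 differed by −2.73 (SE 0.32, adjusted p = 4.7e-05). Of the 6 endothelial markers 2 were lower, or 1 higher and 1 lower after the scale factor. Of the 5 cholangiocyte markers 1 was lower, Sox9 (−1.64, SE 0.11, adjusted p = 5.2e-06), and after the scale factor 1 was higher and 1 lower. No marker measured had a mean under 0.1 FPKM. The part of hepatocyte content in the member differences was not tested.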

How the data were processed

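Strand-specific RNA libraries of the livers of 6 PZH mice and 6 control mice were made by the authors. Reads were trimmed (Trimmomatic) and mapped to GRCm38 (HISAT2), and the authors quantified transcripts in StringTie on the Ensembl annotation. The authors deposited FPKM per transcript and mouse on the linear scale, with a row sum over the 12 mice of at least 1, so isoforms below this are not seen. Column names give the group and number of each mouse. The lncRNA table was not used.

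The members and the gene lists were chosen with earlier results of these data known. Transcripts were assigned to genes with GENCODE M21 (29876 of 29883), and gene values are sums. With no filter on low values, log2(FPKM + 1) was taken, and groups were compared in R 4.3.3 with limma 3.58.1 with Benjamini-Hochberg adjustment over all genes or all transcripts. Within-group relations used two-sided exact permutation over the 720 orders of 6 mice, adjusted over 14 pairs. Other steps used Python 3.11.15 with numpy 2.4.6, matplotlib 3.10.9, pandas 2.3.3 and scipy 1.17.1. The limma procedure was tested on simulated data. Named genes were every member, from each list those called with an absolute log2 difference of at least 1 (at most 4 in each direction), and the 5 genes most like Upp2 over 12 mice and over the PZH mice. Of the genes that this rule gave, 1 is not reported here. Of 7 listed pathway and marker genes no value was used (Nt5c1a, Nt5c1b, Slc28a1, Slc28a3, Slc29a4, Allc and Slc1a2).

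Only 2.65% to 3.50% of low values were whole multiples of the smallest step, so counts were not recovered, no counting interval is given, and precision is the spread between mice. The labels do not say that mice of the same number were paired, and their deviations from the group means correlated at −0.08 to 0.09. Nothing in the labels tells of a batch, and p-values measure the spread between these mice. The alternatives tried were a median-ratio scale factor, an equal sum per mouse, a pseudocount of 0.1, genes with a mean FPKM of at least 1, a mean-variance trend, a replicate block, and leaving out single mice.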

Additional observations from a re-analysis of the deposited data

Results flagged for a closer look

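In 56 groups of 6 mice, each value of a member or of an Upp2 share was compared with the nearest of the others, and 6 held a mouse far from the rest, where chance flags about 1 group in 20. Of these 6, 3 were PZH mouse 2. Its Cda level of 6.01 FPKM was above the 2.19 to 3.46 of the other PZH mice, its level of the Upp2 isoform ENSMUST00000229923 of 11.2 FPKM was below their 69.6 to 94.2, and 9.48% of its Upp2 FPKM was in the distal isoform, beside 1.78% to 3.03%. These 3 are measures of 1 library and are not independent.

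The others were single isoforms at low levels. ENSMUST00000230627 of Upp2 was 1.47 FPKM in control mouse 4 and at most 0.0479 in the other controls. ENSMUST00000101525 of Upp1 was 0.812 FPKM in PZH mouse 4 and at most 0.212 in the other PZH mice. ENSMUST00000136875 of Uckl1 was 1.65 FPKM in control mouse 1 and 0.229 to 0.607 in the other controls.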

How the results depend on the processing

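Of 369 values recomputed under the alternatives, 342 kept their direction and side of the threshold, or for a count stayed within 1.5 times. The Upp2 gene difference ranged from 4.59 to 5.24 over all alternatives. Most of the 27 exceptions came from the median-ratio scale factor. Under it 2 member genes passed the 2-fold rule in place of 1, 1 member transcript was lower in place of 3, 16 pathway genes were higher and 7 lower, 2 within-group pairs passed, and Uckl1 reversed to 0.0824. The 2-fold rule called 3 member genes with a pseudocount of 0.1 and 2 with an equal sum per mouse. With 1 mouse left out it called 1 to 2 member genes, 2 without PZH mouse 1, PZH mouse 2, control mouse 2 or control mouse 3, and Uckl1 ranged from −0.18 to 0.0078, with the positive value without control mouse 1. The causes were not tested. The mouse numbers do not pair the mice, and with a replicate block 3 member genes were higher, 3 lower and 1 passed the 2-fold rule, 8 and 10 pathway genes were higher and lower, and no member gene changed its call.

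The FPKM give no read counts, so the precision of isoforms under about 1 FPKM is unknown, and the split between Upp2 isoforms that share most bases is an estimate of the assembler. The scale factor assumes that most genes do not differ, and without it the median gene was lower in the PZH group. All mice received CCl4.

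For the single gene lists 2 alternatives were chosen after seeing the data: leaving out PZH mouse 2, which moved no count by over 1.5 times, and the scale factor, under which hepatocyte markers called higher were 6 in place of 3.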
